A study of Mus musculus with 4 samples.

Results

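The matrix metalloproteinases (MMPs), the ADAMTS proteases, the ADAMTS-like proteins and the tissue inhibitors of metalloproteinases (TIMPs) were examined in mouse fibroblasts depleted of *Setd2*. They were taken by symbol, as all protein-coding transcripts of the deposited transcript table whose gene is named Mmp, Adamts, Adamtsl or Timp with its number, which gave 47 transcripts of 33 genes among 34200 transcripts of 21945 genes. By role they were 7 MMP genes without a C-terminal membrane anchor, 6 membrane-type MMP genes, 13 ADAMTS protease genes, 3 ADAMTS-like genes and 4 TIMP genes. The annotation lists 50 protein-coding genes with such names, so 17 had no transcript in the table. Among the untested genes were 9 MMPs, including the stromelysins *Mmp3* and *Mmp10*, and 6 ADAMTS proteases, while every membrane-type MMP and every TIMP was tested.

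MMPs and ADAMTS proteases are zinc-dependent enzymes that cut proteins outside the cell. MMPs degrade collagens, gelatin and many surface proteins, and most are made as proenzymes that must lose a propeptide. ADAMTS proteases carry thrombospondin repeats and cut proteoglycans such as aggrecan and versican, the propeptides of fibrillar collagens or proteins of the fibrillin microfibrils, whereas ADAMTS-like proteins share the repeats but have no protease domain. TIMPs bind the active site of MMPs, and TIMP3 also blocks the aggrecan-cutting ADAMTS proteases. Fibroblasts are a source of many of these proteins in connective tissue.

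The cells were NIH/3T3, an immortalised fibroblast line, at 48 h after transfection with siRNA at 10 nM with a lipid reagent. KD cells received 2 siRNAs against *Setd2*, the methyltransferase that places H3K36me3 on transcribed genes, and the cells labelled wild type (WT) received a Scrambled siRNA, so both groups had been transfected. There were 2 KD and 2 WT libraries of polyadenylated RNA. The comparison asked how loss of *Setd2* changes the levels of mRNAs.

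All values below derive from 1 comparison in Sleuth, a program for reads that were assigned to transcripts by Kallisto. A level is a normalised estimated count, which is the number of reads assigned to a transcript after division by a size factor of the library, and it was worked out for each group from the mean and the effect. Values of the single libraries were not used here and their depth is unknown, so levels are given for groups, and p-values apply to these 4 libraries, with Sleuth's own estimates of the variance. A transcript is called when its q-value in Sleuth's likelihood ratio test, adjusted over all 34200 transcripts, is under 0.05. The single tested *Setd2* transcript decreased by 74.9% in KD (q = 0.0103). All 10 fibroblast markers of a list were tested and their summed level was 1131850 in KD and 1259350 in WT. This sum hides opposite changes, as 4 of the genes had a transcript called higher in KD and 3 had one called lower. Of their 23 transcripts, 10 were called (43.5%, against 12.5% of all transcripts). The 3 leukocyte markers summed to 427 in KD and 359 in WT, and 3 endothelial markers to 84.1 and 57.3. The 4 epithelial markers, of which *Epcam* and *Krt18* were not tested, summed to 158 and 119. The part of other cells in the results was not tested. In such bulk RNA, fewer cells of a kind and less RNA in each cell cannot be told apart.

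In KD cells the gelatinase *Mmp2* rose and the inhibitor *Timp3* fell, and the aggrecan-cutting proteases *Adamts1* and *Adamts5* fell with it. Of the 47 transcripts, 10 were called (21.3%), against 12.5% of all transcripts tested. Of these, 4 were higher and 6 lower in KD, where 7.26% and 5.21% of all transcripts were called in these directions. Calling depends on level: among transcripts with a mean of at least 100 counts, 8 of 27 members (29.6%) and 21.4% of all transcripts were called. The median log2(fold change) was −0.02 for the members and −0.01 for all transcripts. When the effects were centred on a trend with the GC content of the transcripts, the Wald test called 3 members higher and 10 lower, against 5 and 8 without centring. The called genes numbered 10 of 33, as each held 1 called transcript, against 24.2% of all protein-coding genes with at least 1.

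The deposited means, variances and effects also show which groups cannot overlap. With 2 libraries in each group, a difference of the group means larger than the root of the residual sum of squares leaves no arrangement in which a KD library lies among the WT libraries. This held for all 10 called members and for 25 of the 47 members, and for 54.8% of all transcripts. Separation was thus about as frequent among the members as in the whole table, and by itself it says little about them.

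**Figure D1:**
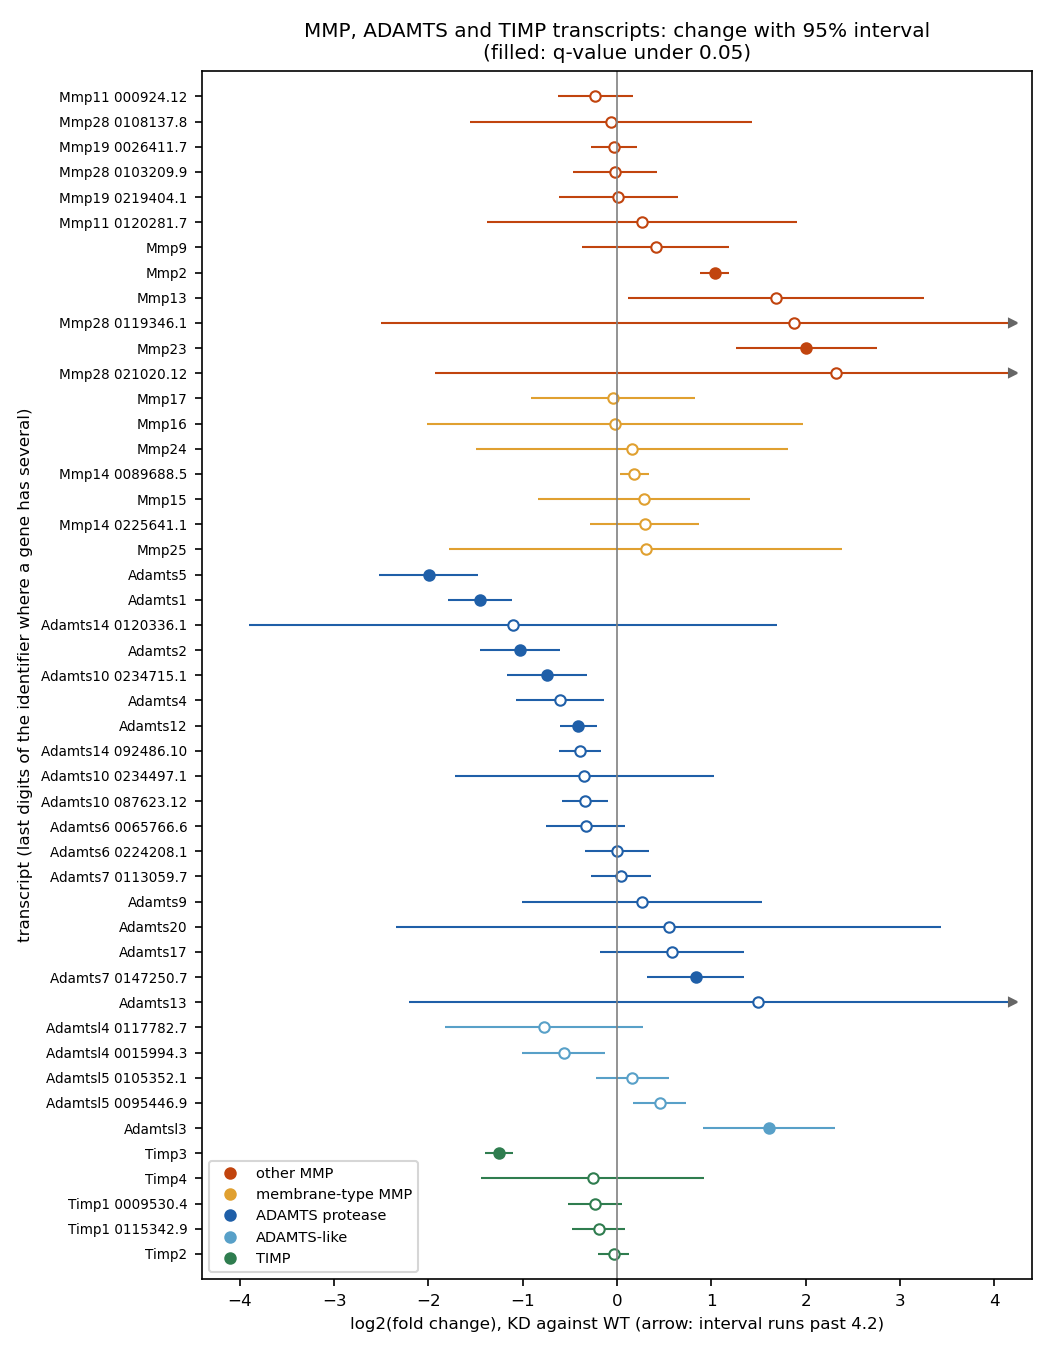
The 47 transcripts by role, with the log2(fold change) of KD against WT on the horizontal axis, its 95% confidence interval from the deposited standard error as a line, and filled points for the 10 called transcripts. *Adamts5* (−2.00), *Adamts1* (−1.45) and *Timp3* (−1.25) lie farthest to the left among the filled points, and *Mmp23* (2.01) and *Adamtsl3* (1.61) farthest to the right.

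Among the MMPs without a C-terminal anchor, *Mmp2* and *Mmp23* rose and none of the 12 transcripts fell past the threshold. *Mmp2* encodes gelatinase A, which cuts denatured collagen and the type IV collagen of basement membranes. Its only tested transcript (ENSMUST00000034187.8, chromosome 8, 92827291 to 92853420, 13 exons) had a level of 19125 in KD and 9342 in WT. That was a log2(fold change) of 1.03 (standard error 0.08, q = 0.0103), or 105% higher with a 95% confidence interval from 84.4% to 127%. The KD libraries lay above the WT libraries without overlap, and the pooled SD between libraries of a group was 0.08 on the log2 scale. *Mmp2* was the MMP with the highest level per kb of transcript in both groups, 6213 counts per kb in KD and 3035 in WT. Centring on GC content lowered its log2(fold change) to 0.83, and it remained past the threshold.

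*Mmp23*, a protease anchored by its N-terminal end and lacking the usual cysteine switch, was scarce. Its level was 77.1 in KD and 18.8 in WT (ENSMUST00000030937.1, chromosome 4). The log2(fold change) was 2.01 (standard error 0.38, q = 0.0225), and its 95% confidence interval, from 139% to 577% higher, shows how loosely such a low level fixes the size of the change. It had the largest rise of the called members.

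*Mmp13*, the collagenase that cuts fibrillar collagens in rodent tissue, was at the edge of detection. Its level was 18.3 in KD and 5.36 in WT, a log2(fold change) of 1.68 (standard error 0.80, q = 0.120), so the difference was not past the threshold although the groups did not overlap. It was the only member gene with the AP-1 motif TGANTCA in its RefSeq promoter sequence, read from 250 bases before to 50 bases after the start site. The motif is its own reverse complement and was therefore searched on both strands at once. It starts 35 bases before the start site. It is shown in capitals within its surroundings on the plus strand of GRCm38.p6 at chr9:7272469-7272495.

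*Mmp13*: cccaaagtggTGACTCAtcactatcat

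Promoter sequences were found for 23 of the 33 member genes, and 1 of these genes held the motif, whereas it was present in 7.81% of all 32851 promoters. None of the 6 called genes with a promoter sequence, among them *Timp3* and *Adamts1*, held it in this window. The motif's absence from 300 bases says nothing about AP-1 at these genes.

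The remaining MMPs did not pass the threshold. *Mmp11*, which is activated inside the cell by furin, had a summed level of 1141 in KD and 1327 in WT, and *Mmp19* had 1222 and 1240. *Mmp9*, gelatinase B, was nearly absent beside *Mmp2*, with 37.0 in KD and 27.7 in WT (log2(fold change) 0.41, 95% confidence interval from −0.37 to 1.19). The *Mmp28* gene had 4 tested transcripts, and its most abundant one was at 179 in KD and 182 in WT. A pair of rare *Mmp28* isoforms showed log2(fold changes) of 2.32 and 1.88, but with fewer than 11 counts in either group and standard errors of 2.17 and 2.24 these could not be told from 0.

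Of the membrane-type MMPs, only *Mmp14* was abundant, and none of the 7 transcripts was called. *Mmp14* encodes MT1-MMP, which cuts collagen at the cell surface and activates the proenzyme of MMP2 in a complex with TIMP2. Its main transcript (ENSMUST00000089688.5, chromosome 14) had a level of 7986 in KD and 7036 in WT. The log2(fold change) was 0.18 (standard error 0.08, q = 0.0526), which turned to −0.02 after centring on GC content, so no direction is given. *Mmp14* made up 99.6% of the summed level per kb of the 6 membrane-type genes in WT. The other 5 genes, *Mmp15*, *Mmp16*, *Mmp17*, *Mmp24* and *Mmp25*, had levels between 5.37 and 26.3 in WT and between 6.74 and 25.5 in KD, and their intervals all included 0.

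**Figure D2:**
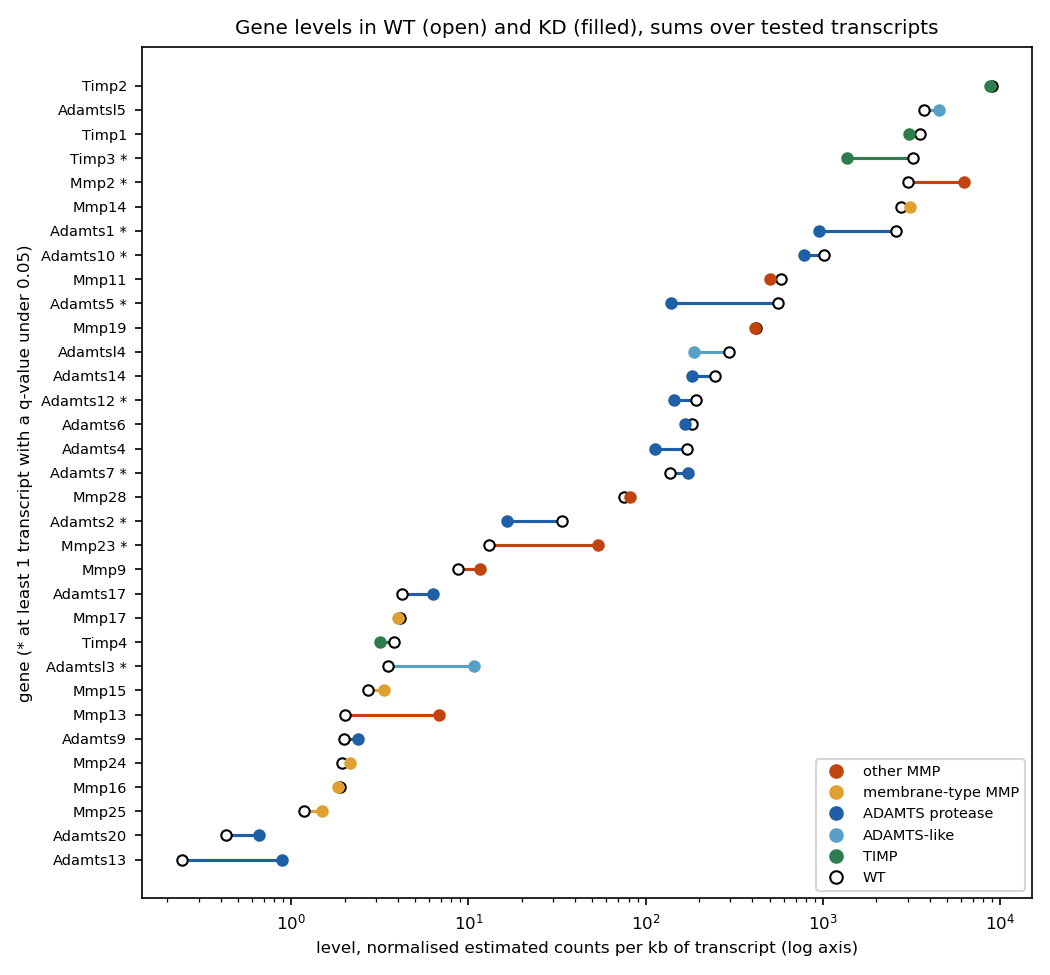
Levels of the 33 genes in WT (open points) and KD (filled points), summed over tested transcripts, in normalised estimated counts per kb on a log axis and ordered by WT, with a star for genes with a called transcript. *Timp2* is highest at 8931 in WT and 8720 in KD, *Mmp2* moves from rank 5 to rank 2, and *Adamts5* moves from rank 10 to rank 16.

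*Timp1*, *Timp2* and *Timp3* were among the genes with the highest levels per kb, *Timp4* was not, and of the 4 only *Timp3* was called. *Timp2*, which inhibits MMPs and also takes part in the activation of MMP2, had the highest level per kb of all 33 genes, 8931 counts per kb in WT and 8720 in KD. Its level of 33124 in WT and 32341 in KD differed by a log2(fold change) of −0.03 (95% confidence interval from −0.20 to 0.13). Its unadjusted p in the likelihood ratio test was nevertheless 0.0303 (q = 0.111). In the Wald test its q-value was 0.891. Of the 5421 transcripts with a log2(fold change) under 0.1 in size, 1093 had an unadjusted p under 0.05 and 0 were called. Unadjusted p-values were therefore not used for calls. The q-values are adjusted from the same p-values and carry over any fault of this test, and their calibration was not tested. The smallest change of a called member was 0.41.

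*Timp3* encodes the inhibitor that binds to the extracellular matrix and blocks ADAM17 and the aggrecan-cutting ADAMTS proteases as well as MMPs. The transcript (ENSMUST00000020234.13, chromosome 10, 86300372 to 86349506, 5 exons) was at 6416 in KD and 15292 in WT. The log2(fold change) of −1.25 (standard error 0.08, q = 0.0103) corresponds to a change of −58.04%, with a 95% confidence interval from −62.2% to −53.4%. The KD libraries all lay below the WT libraries, and the pooled SD between libraries of a group was 0.06 on the log2 scale. *Timp3* fell from 20.6% to 10.3% of the summed TIMP level per kb, while *Timp2* went from 56.8% to 66.4%.

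*Timp1*, an inhibitor of most secreted MMPs, had 2 tested transcripts with a summed level of 2626 in KD and 3043 in WT, and neither was called (q = 0.211 and 0.256). *Timp4*, an inhibitor better known from heart and brain, was nearly silent at 17.4 in KD and 20.9 in WT. In the annotation *Timp1*, *Timp3* and *Timp4* each lie within a synapsin gene on the opposite strand, *Syn1*, *Syn3* and *Syn2* respectively, and *Timp2* lies within no other protein-coding gene.

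Among the ADAMTS proteases, 6 of 18 transcripts were called (33.3%, against 12.5% of all transcripts), 5 lower and 1 higher in KD. All 6 were among the 12 with a mean of at least 100 counts, a level at which 21.4% of all transcripts were called, and the roles were not tested against each other. Their median log2(fold change) was −0.34, and −0.44 after centring on GC content. The summed level per kb of the 13 genes was 5124 in WT and 2670 in KD, a change of −47.9%. Most of this difference came from *Adamts1*, which held 50.6% of the sum in WT and 35.5% in KD.

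*Adamts1*, *Adamts4* and *Adamts5* encode the classical proteases of aggrecan and versican, and ADAMTS5 is the main one in mouse cartilage. *Adamts1* (ENSMUST00000023610.14, chromosome 16, 9 exons) had a level of 4626 in KD and 12652 in WT. Its log2(fold change) was −1.45 (standard error 0.17, q = 0.0129), or −63.4% with a 95% confidence interval from −71.0% to −53.8%. *Adamts5* (ENSMUST00000023611.6, chromosome 16, 8 exons) was at 1507 in KD and 6019 in WT, the deepest fall of the called members, with a log2(fold change) of −2.00 (standard error 0.27, q = 0.0148). In both genes the KD libraries lay below the WT libraries without overlap. Their neighbourhood is shared too: *Adamts1* (85793827 to 85803113) and *Adamts5* (85856173 to 85901828) lie 53.1 kb apart on the minus strand of chromosome 16 with 0 protein-coding genes between them, and they were the only member genes within 500 kb of each other.

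*Adamts4*, on chromosome 1, was at 492 in KD and 749 in WT, a log2(fold change) of −0.61 (95% confidence interval from −1.08 to −0.14) that was not past the threshold (q = 0.0979). *Adamts9* and *Adamts20*, which also cut versican, had levels between 2.94 and 14.4 and could not be assessed.

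*Adamts2* and *Adamts14* remove the N-terminal propeptide of fibrillar procollagens. *Adamts2* (ENSMUST00000040523.8, chromosome 11) was at 120 in KD and 246 in WT, a change of −51.1% with a 95% confidence interval from −63.5% to −34.5% (q = 0.0194). The main *Adamts14* transcript was at 915 in KD and 1201 in WT, with a log2(fold change) of −0.39 (standard error 0.11) and a q-value of 0.0556. It was past the threshold in the Wald test (q = 0.00514) and not in limma (adjusted p = 0.102). A second *Adamts14* transcript, at 23.8 and 51.7, had a log2(fold change) of −1.11 with a standard error of 1.43, and 1.00% of its words of 31 bases were absent from the first, so reads could hardly be assigned to it.

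*Adamts7* and *Adamts12* encode proteases that are both able to cut cartilage oligomeric matrix protein (*Comp*). *Adamts12* (ENSMUST00000061318.8, chromosome 15) fell from 1652 in WT to 1241 in KD, with a log2(fold change) of −0.41 (standard error 0.10, q = 0.0275). An *Adamts7* isoform (ENSMUST00000147250.7, chromosome 9) rose from 201 to 358, with a log2(fold change) of 0.83 (standard error 0.26, q = 0.0476), while the other isoform (ENSMUST00000113059.7) was at 531 in KD and 516 in WT. Only 1.15% of the 31-base words of the called isoform were absent from the other one, so reads could hardly be assigned to it. The summed level of the gene was 24.0% higher in KD, which carries no test. After centring on GC content the isoform was not past the threshold in the Wald test (log2(fold change) 0.67, adjusted p = 0.0643).

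*Adamts10*, *Adamts6* and *Adamts17* encode proteases linked to fibrillin microfibrils. The short *Adamts10* transcript of 3 exons (ENSMUST00000234715.1, chromosome 17) fell from 240 in WT to 143 in KD (log2(fold change) −0.74, standard error 0.22, q = 0.0452), but its adjusted p was 0.0645 in limma's moderated test. The full-length transcript (ENSMUST00000087623.12, 25 exons) was at 2789 and 3532, a log2(fold change) of −0.34 with q = 0.0836, past the threshold in the Wald test (q = 0.0331) and not in limma (adjusted p = 0.120). The *Adamts10* sum decreased by 22.3% in KD, which carries no test. *Adamts6* had 979 in KD and 1052 in WT over its 2 transcripts, and *Adamts17* had 38.15 and 25.3, with neither called. *Adamts13*, the protease of von Willebrand factor, was barely detected, at 4.0 in KD and 1.09 in WT, with a standard error of 1.89 on its log2(fold change) of 1.5.

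**Figure D3:**
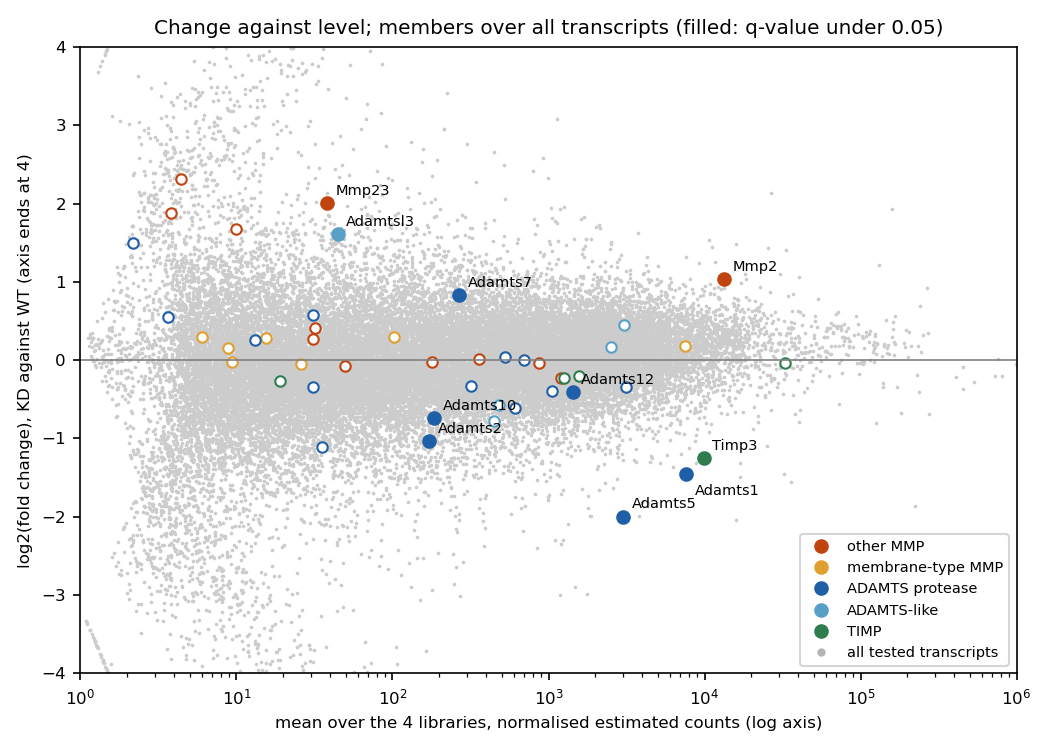
The log2(fold change) of KD against WT (vertical axis) by mean level on a log axis for the members, coloured by role and filled where called, over the transcripts tested in grey, of which those beyond 4 in size are outside the axes. *Mmp2*, *Timp3*, *Adamts1* and *Adamts5* lie at the rim of the cloud at means of 3012 to 13367 counts, whereas *Mmp23* and *Adamtsl3* were called at means of 38.21 and 44.7 counts.

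Of the ADAMTS-like genes, *Adamtsl3* rose. Its transcript (ENSMUST00000173287.7, chromosome 7) was at 78.4 in KD and 25.4 in WT, a log2(fold change) of 1.61 (standard error 0.36, q = 0.0235) with a 95% confidence interval from 88.0% to 395% higher. *Adamtsl4* and *Adamtsl5* encode proteins that associate with fibrillin. *Adamtsl5* was abundant, second only to *Timp2* per kb in WT, and its transcripts had levels of 3570 and 2657 in KD and 2610 and 2373 in WT (q = 0.0645 and 0.613). The *Adamtsl4* transcripts summed to 736 in KD and 1171 in WT, and neither was called (q = 0.0911 and 0.274).

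Levels per kb show where the balance between groups of members lay. The summed level per kb of the MMPs without a C-terminal anchor was 4137 in WT and 7284 in KD, 76.1% higher, and *Mmp2* was 73.4% of it in WT and 85.3% in KD. The TIMP sum was 15711 in WT and 13134 in KD, a change of −16.4%. These sums carry no test, and with GC centring the changes were 55.1% and −20.5%. The membrane-type sum, 13.6% higher in KD, changed by −1.42% with that centring. In WT the order of the genes with the highest level per kb was *Timp2*, *Adamtsl5*, *Timp1*, *Timp3*, *Mmp2* and *Mmp14*, in KD it was *Timp2*, *Mmp2*, *Adamtsl5*, *Mmp14*, *Timp1* and *Timp3*. How far neighbours in this order differ beyond the spread of the libraries was not tested.

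Other genes of extracellular proteolysis were read from a list of 40, of which 29 were tested. Their 46 transcripts included 8 called higher (7 genes) and 5 called lower (5 genes) in KD, which was 28.3% against 12.5% of all transcripts, and the median log2(fold change) was 0.15. All 13 were among the 37 with a mean of at least 100 counts, where 21.4% of all transcripts were called. Of the inhibitors and regulators, *Reck*, a membrane-anchored inhibitor of MMP2, MMP9 and MT1-MMP, fell most, from 1062 in WT to 377 in KD (log2(fold change) −1.49, standard error 0.21, q = 0.0158). *Cst3*, the cystatin that inhibits cysteine cathepsins, rose from 14369 to 20761. The main *Bsg* transcript, the only one called of 3 tested, rose from 24690 to 35620 (log2(fold change) 0.53, q = 0.0168).

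In the plasminogen system the protease and its receptor moved apart. *Plau*, the urokinase that turns plasminogen into plasmin, fell from 9311 in WT to 5276 in KD (log2(fold change) −0.82, q = 0.0207). The urokinase receptor *Plaur* rose from 3448 to 4796 (log2(fold change) 0.48, q = 0.0217). *Plat*, the tissue-type activator, was at 1732 in KD and 2377 in WT and was not called (q = 0.122).

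Of the 5 cathepsins on the list, proteases that act mainly in lysosomes, all were tested and 3 rose. *Ctsl* went from 86267 in WT to 200912 in KD (log2(fold change) 1.22, standard error 0.11, q = 0.0103), *Ctsd* from 27433 to 49209 (0.84, q = 0.0235) and *Ctsb* from 16218 to 27331 (0.75, q = 0.0345). *Ctsk*, the collagen-cutting cathepsin, was at 1819 in KD and 1403 in WT and was not called (q = 0.188), nor was *Ctss*, at 4.52 and 6.66 (q = 0.823). Of the ADAM proteases, which shed surface proteins, *Adam10* fell from 8639 to 6028 (log2(fold change) −0.52, q = 0.0146), *Adam19* rose from 1285 to 1874 (0.54, q = 0.0187) and *Adam17* was at 5094 in KD and 5054 in WT.

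Of 26 genes for substrates and matrix partners, 24 were tested, and their 43 transcripts included 7 called higher (6 genes) and 8 called lower (7 genes), with a median log2(fold change) of −0.07. That was 34.9% against 12.5% of all transcripts, and all 15 were among the 35 with a mean of at least 100 counts. The list held 4 fibrillar procollagen genes, whose products have an N-terminal propeptide of the kind ADAMTS2 and ADAMTS14 remove. All 4 were tested and 3 fell in KD. *Col3a1* fell from 9043 to 4778, *Col1a1* from 228494 to 142638 and *Col1a2* from 346235 to 215502, with log2(fold changes) of −0.92, −0.68 and −0.68 (q = 0.0137, 0.0315 and 0.0214). *Col2a1*, the cartilage collagen, was at 34.0 in KD and 46.9 in WT and was not called (q = 0.804). *Bmp1*, the protease of their C-terminal propeptide, fell by 0.38 on the log2 scale (q = 0.0214), and its enhancer *Pcolce* did not pass the threshold (log2(fold change) −0.33, q = 0.0840).

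*Thbs1*, thrombospondin 1, fell most of this list, from 61142 in WT to 20857 in KD (log2(fold change) −1.55, q = 0.0103), and the elastic fibre protein *Fbln5* fell in both tested transcripts (log2(fold changes) −0.68 and −0.89). *Fn1*, fibronectin, rose in 2 of its 6 transcripts, the main one from 190022 to 307492 (log2(fold change) 0.69, q = 0.0274). The *Fn1* sum rose less, by 40.4% from 276425 in WT to 388093 in KD, which carries no test. Smaller rises were called for *Ltbp3* (log2(fold change) 0.51, q = 0.0149), *Dcn* (0.43, q = 0.0225), *Nid1* (0.35, q = 0.0253) and *Fbln2* (0.28, q = 0.0376). A transcript of *Ltbp1* was called lower (−0.39, q = 0.0481). *Fbln2* and *Ltbp1* were not past the threshold in limma (adjusted p = 0.0637 and 0.0729). Of the aggrecan family, *Vcan* had 1 transcript called higher and 1 called lower, neither past the threshold in limma (adjusted p = 0.0569 and 0.0548), and its sum changed by −8.58%. *Acan*, aggrecan itself, had a level of 14.9 in KD and 10.5 in WT, and *Comp* of 26.3 and 24.8, so these substrates were scarcely expressed in either group.

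**Figure D4:**
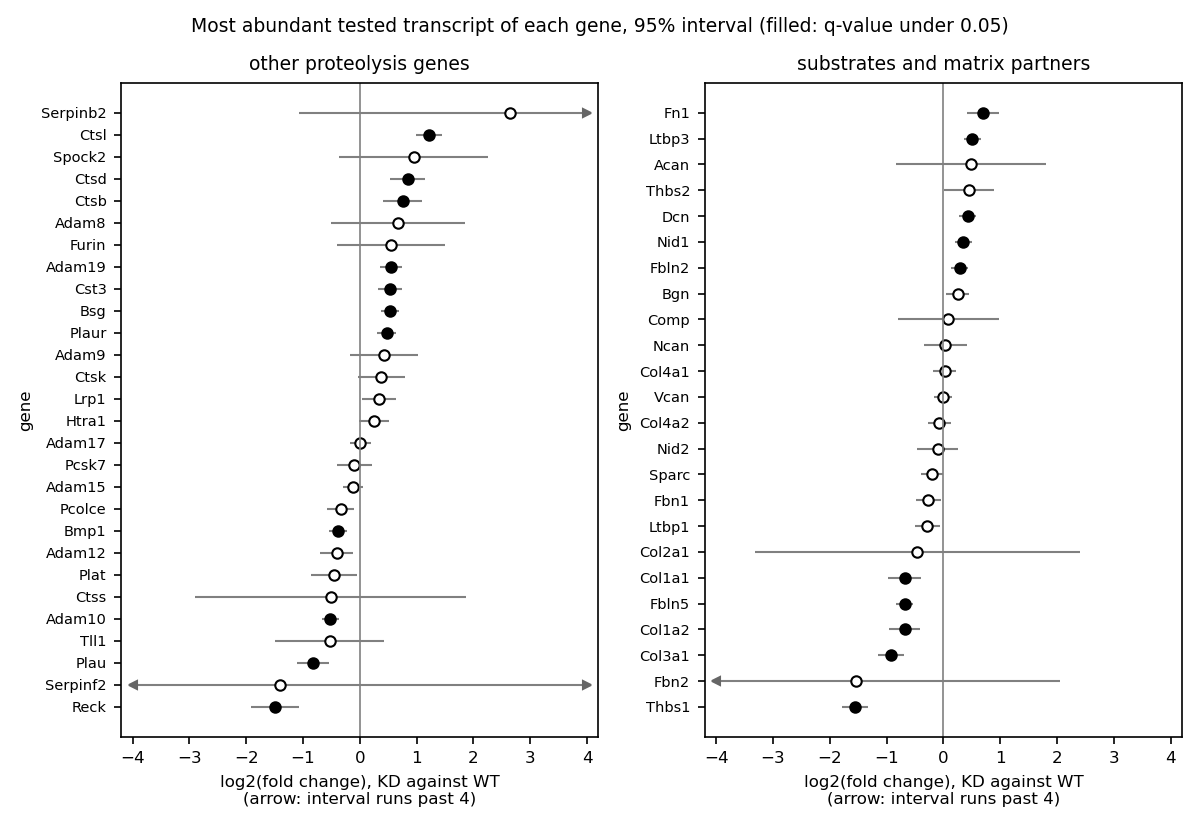
The log2(fold change) of KD against WT with its 95% confidence interval for the most abundant tested transcript of the other proteolysis genes described here and of 24 substrate and matrix partner genes, filled where called. *Ctsl* (1.22) and *Fn1* (0.69) are the highest filled points of their panels, and *Reck* (−1.49) and *Thbs1* (−1.55) the lowest.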

How the data were processed

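In total, 4 polyadenylated RNA libraries (2 KD, 2 WT) were compared, without covariates. The authors trimmed adapters with BBDuk, quantified transcripts with Kallisto and compared groups in Sleuth, and the index and the filter on low counts are not given in the sources used here. The deposited mean, effect and standard error are on the natural log scale of normalised estimated counts plus 0.5. The deposited p-values and q-values are Sleuth's, adjusted over all transcripts. Other columns of the table were not used.

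Effects were converted to log2, group levels were worked out from mean and effect with 0.5 taken away, and sums run over tested protein-coding transcripts. Intervals at 95% use the deposited standard errors with a quantile of the normal distribution, which makes no allowance for only 2 libraries a group. A quantile that did would make them wider. The standard errors exceed the residual SD between libraries for many transcripts and there hold more than the spread of 2 libraries a group. For others they equal it, as for *Adamts1* (0.17) and *Adamts5* (0.27). Depth is unknown. Positions and lengths are from GENCODE M21 (GRCm38), which matched 98.6% of transcripts with their version, and all 47 members. limma (3.58.1) was run on the residual variances, with a trend on the mean, and was tested on simulated data. Protein motifs were not analysed here, and 1 gene of the proteolysis list enters its counts but is not reported here.

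The members and lists were chosen with earlier results of these data known. Named are all called members, uncalled ones with a log2(fold change) of at least 1 in size, the highest gene of each role, *Setd2*, and at most 4 rises and 4 falls among called genes of each list. Further genes of the lists and the uncalled members described were named after their values were seen. Alternatives were Wald q-values, limma, a mean of at least 100 counts, centring on the median or on 50 classes of GC content, and the deposited q-values of genes.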

Additional observations from a re-analysis of the deposited data

How the results depend on the processing

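No paired analysis was possible because the table holds no values of single libraries, and for the same reason no replicate could be left out. The Wald q-values, limma and the limit of 100 counts use the same effects, so they bear on calls and not on directions. The 10 called members kept their direction under both centrings and removal of the added 0.5. The limit of 100 counts could not be applied to *Mmp23* and *Adamtsl3*, which fall below it. Of the calls, 2 were lost, each under 1 setting: the *Adamts10* transcript in limma (adjusted p = 0.0645) and the *Adamts7* transcript after GC centring (adjusted p = 0.0643). *Adamts12* was near the limit in limma (adjusted p = 0.0496). The main *Mmp14* transcript passed at a mean of at least 100 counts (adjusted p = 0.0307) and reversed to −0.023 after GC centring. The count of members lower in KD was 6 in the likelihood ratio test, 5 in limma, 8 in the Wald test and 10 in the Wald test with GC centring. For the other proteolysis transcripts these counts were 5, 5, 7 and 9. The median over members of the shift that GC centring gave each transcript was −0.16, and −0.02 over all transcripts. The main transcripts of *Adamts10* and *Adamts14*, not called, passed in the Wald test, at a mean of at least 100 counts and under both centrings, but not in limma. An *Adamtsl5* transcript (ENSMUST00000095446.9), higher in KD and not called, passed in the Wald test (q = 0.0108), at that mean and with median centring. It did not pass after GC centring or in limma (adjusted p = 0.0813). Certain separation of the libraries, chosen after seeing the data, gave 11 members higher and 14 lower, against 4 and 6 called. The q-values of the deposited gene table were under 0.05 for 11 genes, the 10 with a called transcript and *Mmp14* (q = 0.0344). All 47 rows that match by symbol are protein-coding. With 2 libraries a group, levels below 20 counts, as in *Mmp13*, *Mmp28* isoforms and *Adamts13*, left changes of several fold undecided.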
